A study of Rattus norvegicus with 30 samples.

Results

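Ketone bodies and propionate were supplied to every perfused heart of this rat study, and the results below concern 7 genes that carry or use them: Slc16a1, Bdh1, Oxct1, Acat1, Pcca, Pccb and Mcee. They were chosen by symbol for their place in the pathways, through the transcript accession of each probe, and the brightest probe stood for each gene. They are 7 of the 26785 genes on the array, a count that includes transcripts without a gene symbol. RNA of the left ventricle was read on 30 one-colour Agilent arrays, 5 in each of 6 groups; the rats were Sprague Dawley males, 16 to 18 weeks old.

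The groups were sucrose-fed hearts perfused with glucose, sucrose-fed hearts perfused with mannitol, chow-fed hearts perfused with glucose, chow-fed hearts perfused with mannitol, and non-perfused hearts of sucrose-fed and of chow-fed rats. The high-sucrose diet was given for 8 to 10 weeks to bring on insulin resistance, and chow was the standard feed. Perfused hearts were arrested in the cold and then worked outside the body for 60 min against an afterload of 100 cm H2O, with a filling pressure of 15 cm H2O. Their Krebs-Henseleit buffer, a salt solution free of blood, held propionate at 2 mmol/L, acetoacetate at 1 mmol/L and DL-beta-hydroxybutyrate at 10 mmol/L, with calcium at 2.5 mmol/L. It also held 25 mmol/L glucose or, as the osmotic control, 25 mmol/L mannitol, a sugar alcohol. Because every perfused heart received the ketone bodies and propionate and no non-perfused heart did, these substrates, the loss of blood, the cold arrest and the hour of work cannot be told apart in the perfusion comparisons. An isolated heart also lacks circulating hormones and nerve supply.

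Ketone bodies enter heart cells through proton-linked carriers, of which MCT1, encoded by Slc16a1, is the best known. Within mitochondria BDH1 oxidises beta-hydroxybutyrate to acetoacetate, OXCT1 moves coenzyme A from succinyl-CoA to acetoacetate, and ACAT1 splits the product into acetyl-CoA for the citric acid cycle. Propionate enters the same cycle lower down: propionyl-CoA carboxylase, built of the biotin-bearing alpha chain (Pcca) and the beta chain (Pccb), makes methylmalonyl-CoA, MCEE turns it into its mirror form, and a mutase makes succinyl-CoA. The heart uses ketone bodies readily, and propionate is often added to perfusion buffers to refill the cycle.

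All 11 cardiomyocyte markers examined were well above background on all 30 arrays, and 0 of the 11 changed between perfused and non-perfused hearts over the mean of the 4 perfusion comparisons. Markers of blood cells moved with perfusion: 6 of 7 red blood cell genes fell, with a median log2 change of -5.65, and both neutrophil genes tested fell. All 5 macrophage markers rose, with a median log2 change of 0.36, as did 2 of 5 fibroblast and 1 of 5 endothelial markers, and 1 of 3 sympathetic neuron markers fell. Of all genes tested, 10% rose and 12.3% fell in the same mean. In sucrose mannitol perfusion alone, 1 of the 11 cardiomyocyte markers fell, with a median log2 change of -0.25 over the 11. There 1040 of all 18333 genes tested fell. The cardiomyocyte median was 0.06 in chow mannitol, 0.01 in chow glucose and -0.13 in sucrose glucose perfusion, with 0 of the 11 changed in each. Between 48.8% and 75.4% of the probes of an array were well above background. In such whole-tissue samples, fewer cells of a type and less RNA per cell cannot be told apart.

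In the main fit, which held no term for slide, none of the 7 genes passed the test in any of the 15 comparisons. With slide as a block in the fit, Slc16a1 passed in some of them, as given below. Levels are log2 signals relative to the 75th percentile of the probes of the same array, changes are differences of group means on that scale, and a change was called at an adjusted p below 0.05 (limma with Benjamini-Hochberg adjustment over all 18333 genes tested). For perfusion, 0 of 7 were called in chow mannitol hearts, where 8.49% of all genes tested were, and 0 of 7 in chow glucose hearts, against 9.5% of all genes. In sucrose hearts 0 of 7 were called with mannitol (11.2% of all genes) and 0 of 7 with glucose (8.68% of all genes). Over the mean of the 4 perfusion comparisons, 0 of 7 were called while 22.3% of all genes were. The median change of the 7 genes in that mean was 0.01, and that of all genes tested was -0.04. Of the 105 member changes, 4 had an unadjusted p under 0.05: Slc16a1 in sucrose glucose perfusion and in the perfusion mean, and Mcee in the diet comparison with glucose and in the diet mean. Over all 18333 genes tested, an unadjusted p under 0.05 was found for 3748 in sucrose glucose perfusion and 6011 in the perfusion mean. It was found for 804 in the diet comparison with glucose and 1194 in the diet mean. Each member was read by 1 probe, and every spot of all 7 probes was well above background and below saturation on all 30 arrays.

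**Figure D1:**
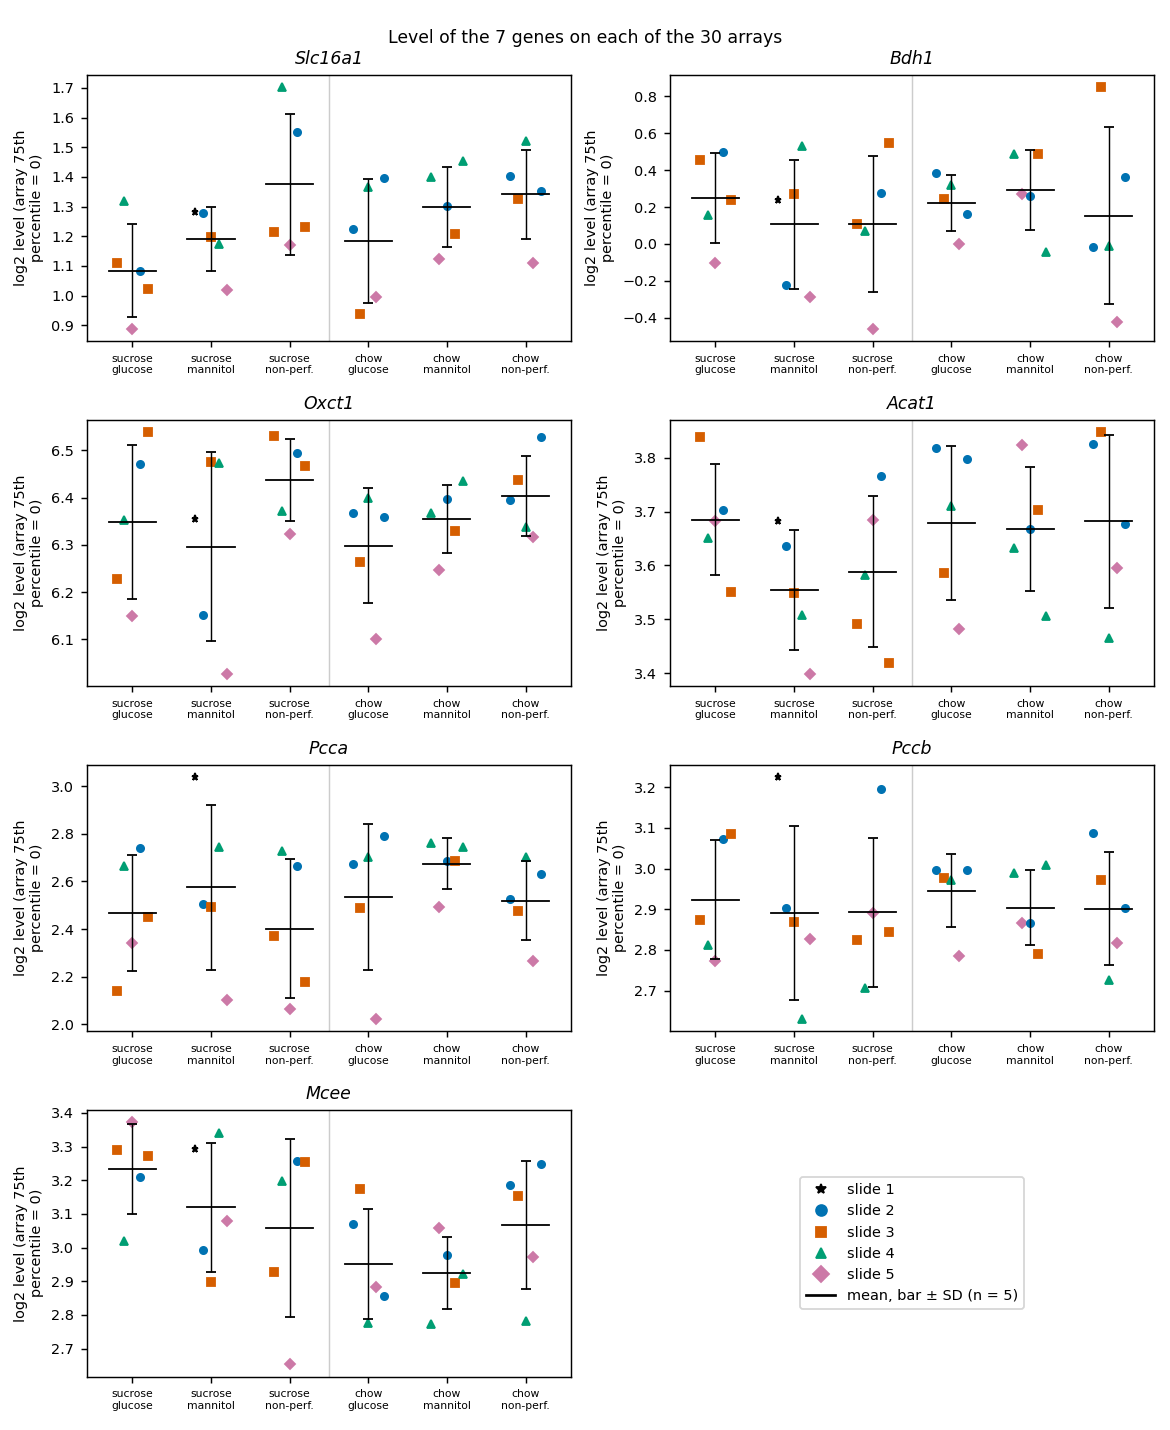
Level of each of the 7 genes on each array (vertical axis, log2 signal with the array's 75th percentile at 0) by group, with symbols for the 5 slides; lines are means and bars SD of 5 arrays. The groups overlap for every gene, and symbols of the same slide tend to lie together for Pcca.

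Slc16a1, the plasma membrane carrier, was the member nearest to a call. Its level was 1.11, 1.32, 0.89, 1.08 and 1.02 in sucrose glucose hearts, against 1.22, 1.70, 1.17, 1.55 and 1.23 in sucrose non-perfused hearts. Sucrose mannitol hearts had 1.28, 1.28, 1.20, 1.17 and 1.02. Of the 5 glucose hearts, 4 lay below every non-perfused heart of that diet and 1 lay within the non-perfused range. In chow hearts the level was 1.22, 0.94, 1.37, 1.00 and 1.39 with glucose and 1.40, 1.12, 1.30, 1.21 and 1.45 with mannitol, against 1.40, 1.32, 1.52, 1.11 and 1.35 without perfusion. These 3 chow groups overlapped throughout. From low to high, the group means were 1.08 (sucrose glucose), 1.18 (chow glucose), 1.19 (sucrose mannitol), 1.30 (chow mannitol), 1.34 (chow non-perfused) and 1.37 (sucrose non-perfused), and each group overlapped its neighbour in that order.

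The perfusion change of Slc16a1 averaged -0.17 on the log2 scale, a fold of 0.889, with a standard error of 0.07 and a 95% interval of -0.31 to -0.03 (limma, adjusted p = 0.0733). The largest of the 4 single changes was that of sucrose glucose hearts, -0.29 with an interval of -0.52 to -0.06 (limma, adjusted p = 0.109). The others were -0.18 in sucrose mannitol, -0.16 in chow glucose and -0.04 in chow mannitol hearts. Comparisons of the same diet share their non-perfused arrays. The difference in response between diets was not called either: it was -0.13 for glucose perfusion, with an interval of -0.45 to 0.19, and -0.14 for mannitol perfusion, with an interval of -0.46 to 0.18.

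The arrays lay on 5 slides, and 54.4% of the variance of Slc16a1 over the 30 arrays lay between slides, against 30.3% between groups. Within each of the 4 slides that carry all 6 groups, the mean perfusion change was negative, at -0.22, -0.17, -0.29 and -0.13. The sucrose glucose change was negative in all 4 as well, at -0.47, -0.16, -0.39 and -0.28. With slide as a fixed block in the fit, Slc16a1 fell with perfusion in the mean (-0.18, SE 0.04, limma adjusted p = 0.00116), where 16.6% of all genes fell. It also fell in sucrose glucose hearts (-0.29, limma adjusted p = 0.0033; 5.35% of all genes fell) and in sucrose mannitol hearts (-0.22, limma adjusted p = 0.032; 7.38% of all genes fell). It was not called in chow glucose (-0.16, limma adjusted p = 0.116; 6.38% of all genes fell) or chow mannitol hearts (-0.06, limma adjusted p = 0.634; 4.95% of all genes fell). With slide as a random block it fell in the mean (limma, adjusted p = 0.00925; 15.8% of all genes fell) and in sucrose glucose hearts (limma, adjusted p = 0.0181; 4.9% of all genes fell). Under that block it was not called in sucrose mannitol hearts (limma, adjusted p = 0.114), where 7.64% of all genes fell, nor in chow hearts with glucose (5.96% of all genes fell) or mannitol (5.01%). The plot of Slc16a1 by slide shows these paths.

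**Figure D2:**
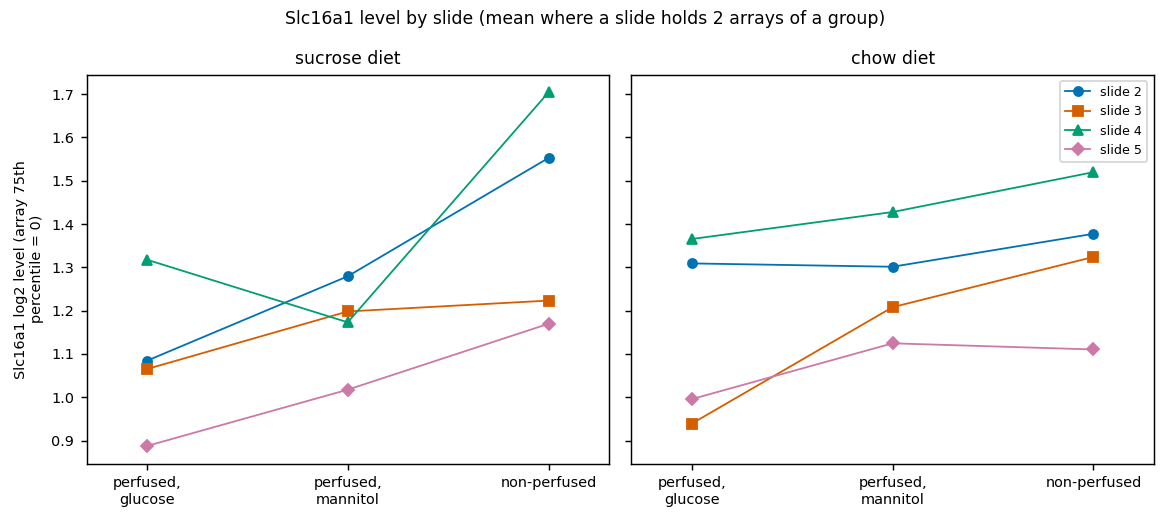
Slc16a1 level (vertical axis, log2 signal with the array's 75th percentile at 0) in sucrose-fed (left) and chow-fed (right) hearts, with 1 line for each of the 4 slides that carry all 6 groups. In sucrose-fed hearts every line is higher without perfusion than with either buffer, and the slides differ in level.

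Several features of the samples moved with this result, and their part in it was not tested. The mean level of the 7 red blood cell genes on an array lay between -2.64 and 1.53 in perfused hearts and between 3.50 and 4.25 in non-perfused hearts. Row 2 of the slides held every glucose array and 4 of 5 from sucrose mannitol hearts. Row 1 held every non-perfused and every chow mannitol array, so row and perfusion with glucose cannot be told apart. The sucrose mannitol array in row 1 was alone on its slide. With slide as a fixed block, row and perfusion therefore cannot be told apart in sucrose mannitol hearts either. Chow mannitol hearts, which share row 1 with the non-perfused hearts, had the smallest Slc16a1 change of the 4. In the authors' deposited values the mean change was -0.17 without a slide block (limma, adjusted p = 0.465) and -0.20 with one, where it was not called (limma, adjusted p = 0.113).

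The letters before a start of Slc16a1 are shown because it is the member nearest to a call, with those of Slc16a3, a carrier of the same family that rose with perfusion. Each run is the 250 bases before a RefSeq start in the GRCr8 build, 5′ to 3′ on the plus strand, at chr2:194812410-194812659 for Slc16a1 and chr10:106712078-106712327 for Slc16a3. The Slc16a1 start is that of the promoter table and lies inside the wider interval that RefSeq gives the gene, so another start lies upstream of the printed run. Capitals mark matches on either strand to the motifs searched.
Slc16a1: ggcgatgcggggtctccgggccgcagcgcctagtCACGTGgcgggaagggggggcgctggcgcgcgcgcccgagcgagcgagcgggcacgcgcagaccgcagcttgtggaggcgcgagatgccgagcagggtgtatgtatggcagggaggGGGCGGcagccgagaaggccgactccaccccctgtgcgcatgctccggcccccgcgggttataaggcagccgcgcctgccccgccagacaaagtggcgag
Slc16a3: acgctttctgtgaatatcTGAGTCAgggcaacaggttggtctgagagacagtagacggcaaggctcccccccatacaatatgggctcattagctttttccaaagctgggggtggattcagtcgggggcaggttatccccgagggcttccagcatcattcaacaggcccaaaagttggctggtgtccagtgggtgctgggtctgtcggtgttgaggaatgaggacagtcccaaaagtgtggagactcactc
The E-box searched, CACGTG, is in the Slc16a1 run at 1 place and in 5.59% of 33469 rat promoter windows of the same length. The hypoxia response core ACGTG, which lies inside that E-box on both strands, is in 16.6% of the windows. The GC box GGGCGG is in the Slc16a1 run at 1 place and in 30.5% of the windows. The Slc16a3 run holds 1 match to the AP-1 motif TGANTCA, found in 6.34%. Neither run holds the cyclic AMP response core TGACG, found in 18.2%, or CCAAT, found in 34%. The GC content is 74.0% in the Slc16a1 run and 54.0% in the Slc16a3 run. A match describes the letters and shows no binding.

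Other carriers rose with perfusion. Of 16 tested genes of a list of monocarboxylate carriers, partners and mitochondrial carriers, 4 rose in the mean of the 4 perfusion comparisons and 0 fell, where 10% of all genes rose and 12.3% fell. The median change of the 16 was 0.04. Slc16a3, which encodes the lactate exporter MCT4, was -1.05, -1.39, -1.04, -1.19 and -1.13 in sucrose glucose hearts and -1.44, -1.37, -1.31, -1.24 and -1.16 in sucrose mannitol hearts, against -1.90, -1.73, -1.81, -2.10 and -1.64 in sucrose non-perfused hearts. In chow hearts Slc16a3 was -1.48, -1.08, -1.28, -0.87 and -1.16 with glucose and -1.60, -1.54, -1.31, -1.45 and -1.41 with mannitol, against -1.90, -2.00, -1.67, -1.77 and -1.74 without perfusion. No perfused group of Slc16a3 overlapped the non-perfused group of its diet. Its mean change was 0.55 (SE 0.06, limma adjusted p = 8.51e-08), and it was called in each of the 4 perfusion comparisons.

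Slc16a7, which encodes the pyruvate and lactate carrier MCT2, rose by 0.54 in the perfusion mean (limma, adjusted p = 0.000933), and Slc16a13, a less studied member of the family, by 0.51 (limma, adjusted p = 0.000369). After normexp background correction the change of Slc16a7 was 0.16 and was not called. The plot of these carriers shows that their groups overlapped in part. Slc25a1, the mitochondrial citrate carrier, rose by 0.44 (limma, adjusted p = 4.28e-05) and was called in all 4 comparisons. After normexp correction the mean change of Slc25a1 was 0.21 and was not called. In the authors' deposited values, Slc16a7, Slc16a13 and Slc25a1 were not called in the mean. Bsg was looked up after its values were seen, because it encodes basigin, the partner that brings MCT1 to the cell surface. Its mean change was -0.14 (limma, adjusted p = 0.071). It fell by 0.29 in sucrose mannitol hearts (limma, adjusted p = 0.0368), where 1040 of all 18333 genes tested fell. With slide as a fixed block Bsg also fell in the mean (limma, adjusted p = 0.0256), where 16.6% of all genes fell. In the authors' deposited values neither Bsg change was called, at -0.13 in sucrose mannitol hearts (limma, adjusted p = 1) and -0.13 in the mean (limma, adjusted p = 0.637). In chow glucose hearts the Bsg change was -0.0040. Whether the change of Slc16a1 differs from those of the other carriers was not tested.

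**Figure D3:**
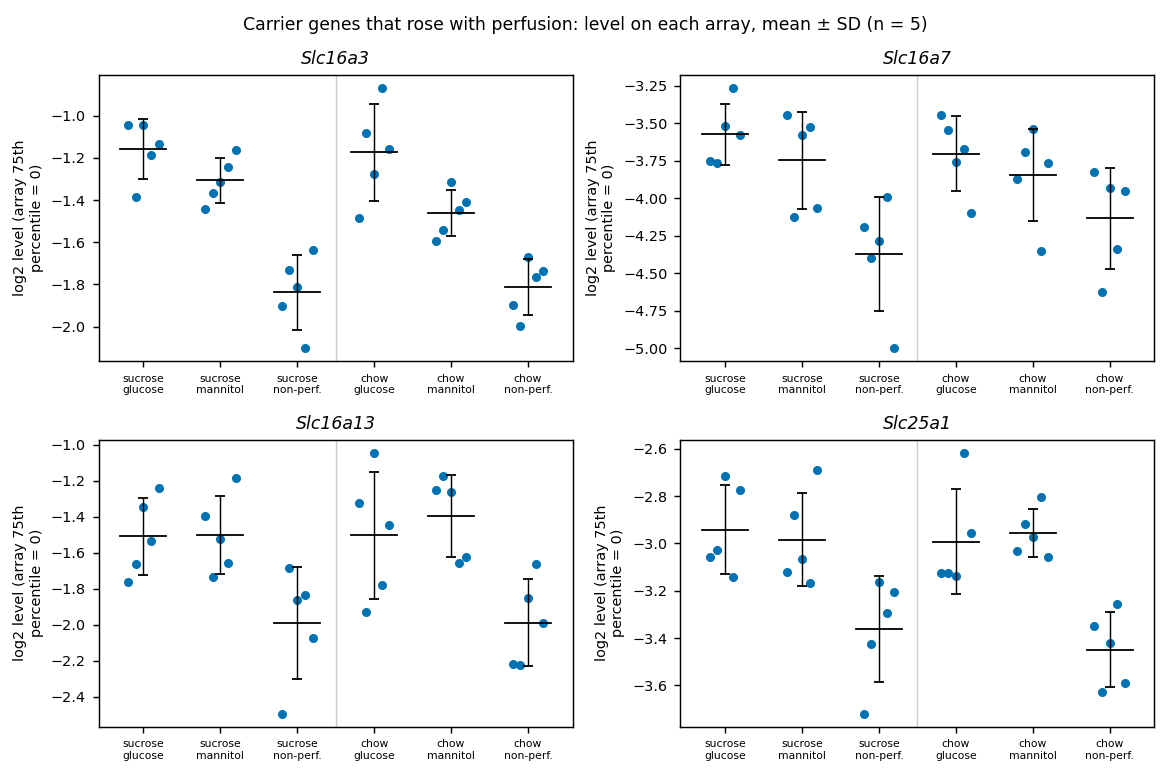
Level of 4 carrier genes that rose in the perfusion mean (vertical axis, log2 signal with the array's 75th percentile at 0) on each array by group; lines are means and bars SD of 5 arrays. For Slc16a3 every perfused array lies above every non-perfused array of its diet.

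Bdh1, the beta-hydroxybutyrate dehydrogenase, had the widest spread of the 7, with a residual SD of 0.31 log2 units, against a median of 0.23 over all genes tested. In sucrose hearts its level was 0.46, 0.16, -0.10, 0.50 and 0.24 with glucose and 0.24, -0.22, 0.27, 0.53 and -0.29 with mannitol, against 0.11, 0.07, -0.46, 0.28 and 0.55 without perfusion. Chow hearts had 0.39, 0.24, 0.32, -0.00050 and 0.16 with glucose and 0.49, 0.27, 0.26, 0.49 and -0.04 with mannitol, against -0.02, 0.85, -0.01, -0.42 and 0.36 without perfusion. The non-perfused groups spanned more than the glucose groups, and every group overlapped every other. The mean perfusion change was 0.09, with an interval of -0.16 to 0.34 (limma, adjusted p = 0.686). The duplicate spots of Bdh1 disagreed most on chow non-perfused replicate 3, with an SD of 0.77 log2 units.

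Oxct1, the committed step of ketone use, was read by 10 spots per array. Its level was 6.23, 6.35, 6.15, 6.47 and 6.54 in sucrose glucose hearts and 6.35, 6.15, 6.47, 6.47 and 6.03 in sucrose mannitol hearts, against 6.53, 6.37, 6.32, 6.49 and 6.47 in sucrose non-perfused hearts. Chow hearts had 6.37, 6.26, 6.40, 6.10 and 6.36 with glucose and 6.37, 6.25, 6.40, 6.33 and 6.43 with mannitol, against 6.40, 6.44, 6.34, 6.32 and 6.53 without perfusion. All 4 perfused means lay below the non-perfused mean of their diet, and the arrays overlapped. The mean change was -0.10, with an interval of -0.20 to 0.01 (limma, adjusted p = 0.216), and in the authors' deposited values it was 0.01. The 4 single changes lay between -0.14 in sucrose mannitol and -0.05 in chow mannitol hearts.

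Acat1, the thiolase of the last step, lay between 3.40 and 3.85 over the 30 arrays. Its mean perfusion change was 0.01, with an interval of -0.10 to 0.12 (limma, adjusted p = 0.922). Its single changes lay between -0.03 in sucrose mannitol and 0.10 in sucrose glucose hearts, and the 6 group means lay between 3.56 (sucrose mannitol) and 3.68 (sucrose glucose).

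Of the propionate genes, Pcca, the biotin-bearing chain, averaged 2.47 ± 0.24 in sucrose glucose hearts and 2.58 ± 0.35 in sucrose mannitol hearts, against 2.40 ± 0.29 in sucrose non-perfused hearts (SD, n = 5 each). In chow hearts Pcca averaged 2.53 ± 0.31 with glucose and 2.67 ± 0.11 with mannitol, against 2.52 ± 0.17 without perfusion (SD, n = 5 each). Its mean perfusion change was 0.10, with an interval of -0.10 to 0.30 (limma, adjusted p = 0.521), and was positive within 4 of 4 slides. Of its variance, 74.4% lay between slides and 12.0% between groups. Duplicate spots of Pcca disagreed by up to an SD of 0.98, on sucrose non-perfused replicate 5. The highest Pcca level, 3.04, was that of sucrose mannitol replicate 1, which was alone on its slide and scanned on another day. The Pcca change in sucrose mannitol perfusion was 0.18, and between 0.06 and 0.29 with 1 array left out. Pccb, the partner chain, had a mean perfusion change of 0.02 with an interval of -0.11 to 0.14 (limma, adjusted p = 0.88), and 1.95% of its variance lay between groups.

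Mcee, the epimerase, had the largest mean diet change of the 7, which was not called. With glucose its level was 3.29, 3.02, 3.37, 3.21 and 3.27 in sucrose hearts, against 3.07, 3.17, 2.78, 2.88 and 2.86 in chow hearts. With mannitol it was 3.29, 2.99, 2.90, 3.34 and 3.08 in sucrose hearts, against 2.77, 3.06, 2.98, 2.89 and 2.92 in chow hearts. Sucrose hearts were mostly higher, and the groups overlapped under both buffers. Without perfusion Mcee was 2.93, 3.20, 2.65, 3.26 and 3.25 in sucrose hearts, against 3.19, 3.15, 2.78, 2.97 and 3.25 in chow hearts. The diet change was 0.28 with glucose (interval 0.04 to 0.52, limma adjusted p = 0.999), 0.20 with mannitol and -0.01 without perfusion. Its mean over the 3 states was 0.16, with an interval of 0.02 to 0.29 (limma, adjusted p = 0.748), and it was positive within 4 of 4 slides. The mean diet changes of Acat1 and Pcca likewise kept their sign, being negative within 4 of 4 slides. The mean perfusion change of Mcee was -0.01, with an interval of -0.15 to 0.14 (limma, adjusted p = 0.975).

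**Figure D4:**
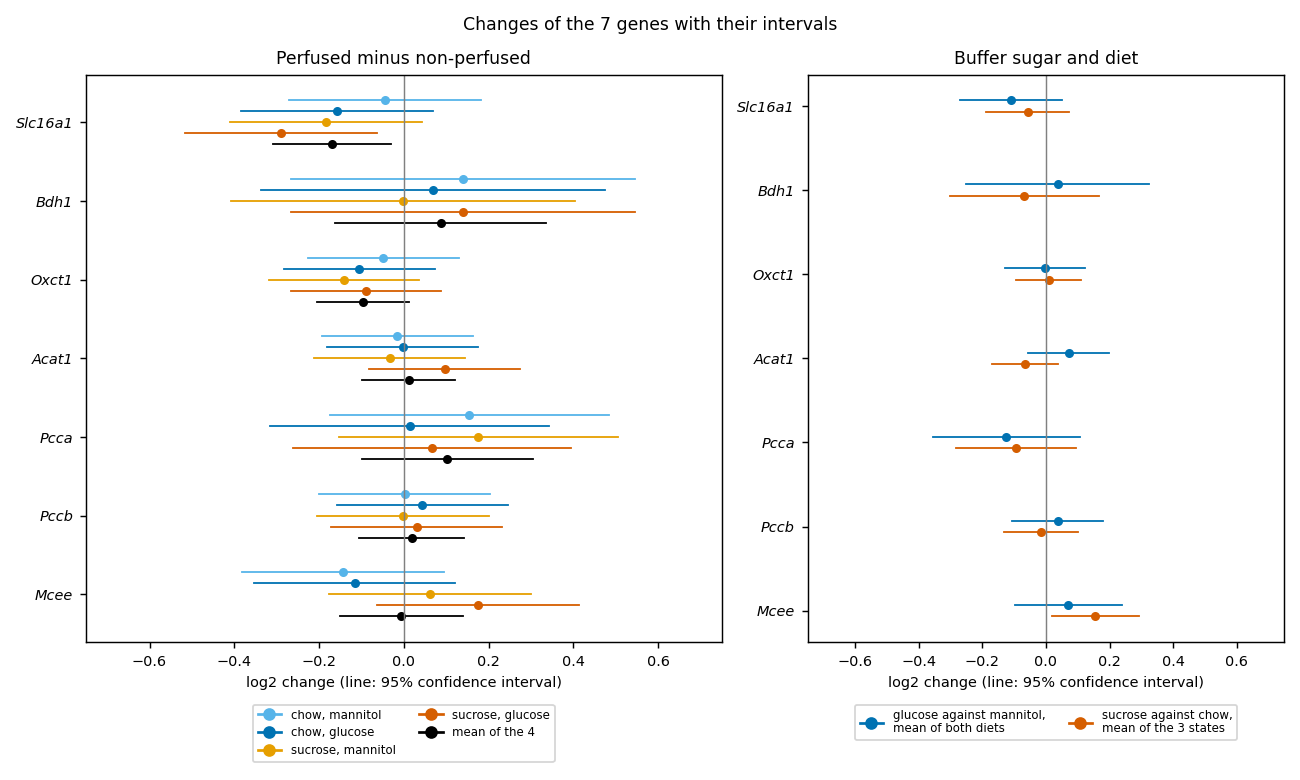
Change of each of the 7 genes (horizontal axis, log2) in the 4 perfusion comparisons and their mean (left) and in the mean buffer sugar and mean diet comparisons (right), with lines for 95% confidence intervals. Intervals for perfusion stay between -0.52 and 0.55, and those of Slc16a1 in sucrose glucose perfusion and in the perfusion mean, and of Mcee in the diet mean, do not reach 0.

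Across the 4 perfusion comparisons the intervals of all 7 genes lay between -0.52 (Slc16a1 in sucrose glucose hearts) and 0.55 (Bdh1 in sucrose glucose hearts). The buffer sugar gave 0 of 7 calls in chow hearts (0% of all genes), 0 of 7 in sucrose hearts (0.00545%) and 0 of 7 in the mean of both diets (0.00545%). The mean glucose minus mannitol changes lay between -0.12 for Pcca, with an interval of -0.36 to 0.11, and 0.07 for Acat1, with an interval of -0.06 to 0.20. For Slc16a1 that change was -0.11, with an interval of -0.27 to 0.05. In chow hearts every glucose array lay in row 2 of the slides and every mannitol array in row 1. Row and buffer sugar therefore cannot be told apart in chow hearts. In the diet comparison with mannitol, most sucrose arrays lay in row 2 and every chow array in row 1. Diet gave 0 of 7 calls without perfusion (0%), with mannitol (0.00545%), with glucose (0%) and in the mean (0.00545%). Apart from Mcee, mean diet changes lay between -0.09 for Pcca, with an interval of -0.28 to 0.10, and 0.01 for Oxct1, with an interval of -0.09 to 0.11. The 3 interactions gave 0 of 7 calls, and 0% of all genes were called (limma). Where no gene was called, the genes with an unadjusted p under 0.05 numbered 715 for buffer sugar in chow hearts, 612 for diet without perfusion and 804 for diet with glucose. They numbered 1131 for the diet by mannitol perfusion interaction, 481 for diet by glucose perfusion and 918 for diet by buffer sugar.

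Of 71 tested genes in 6 lists around the 7, 9 rose and 2 fell in the perfusion mean, in which 22.3% of all genes were called. They had a median change of -0.00076, and none was called for buffer sugar, diet or an interaction. Among 9 tested genes of ketone body metabolism, 2 rose and 0 fell. Aacs, which activates acetoacetate in the cytosol, rose by 0.27 (limma, adjusted p = 0.00535). The change of Aacs was 0.09 after normexp correction and was not called, nor was it called without the 4 arrays whose control spots spread most. Of 15 tested genes of the propionyl-CoA and methylmalonyl-CoA pathway, 1 changed: Abcd4, a lysosomal transporter needed for cobalamin release, fell by 0.34 (limma, adjusted p = 0.000594). Of 18 tested genes of branched-chain amino acid breakdown, 1 changed: Hsd17b10, a mitochondrial dehydrogenase of isoleucine breakdown, fell by 0.15 (limma, adjusted p = 0.00514). Acacb, the acetyl-CoA carboxylase of the mitochondrial surface and another biotin enzyme, rose by 0.21 (limma, adjusted p = 0.0034). Among 11 tested regulators and receptors, Ppard, a fatty acid-sensing nuclear receptor, rose by 0.45 (limma, adjusted p = 0.000739), and Ppargc1b, a coactivator of mitochondrial genes, rose by 0.31 (limma, adjusted p = 0.00123). With the probes of a gene averaged, the change of Ppard was 0.26 and still called. In the authors' deposited values 1 of the 11 called pathway genes, Slc16a3, was still called, and the change of Hsd17b10 was -0.09.

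By level over the 30 arrays, the genes most like each member were described by Pearson's r, and the points share arrays, slides and scaling. They were picked from the top of 11303 candidates for each member. Pcca had the closest, Abce1 (0.86) and Aldh4a1 (0.86). Oxct1 was nearest to Trappc13 (0.80) and Dym (0.78). Slc16a1 was nearest to Spata18 (0.78) and Ttr (0.78). Bdh1 was nearest to Tspan15 (0.77) and Ap1s2 (0.74). Pccb had an r of 0.71 with Lpar6. Acat1 was nearest to Mars1 (0.71) and Myom2 (0.70). Mcee was nearest to Mrpl41 (0.68) and Myh10 (0.65). Among the members, after group means were removed, the highest r was 0.73, between Pcca and Slc16a1, the genes with the largest shares of variance between slides.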

How the data were processed

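Single-channel Agilent arrays were deposited as scanner tables, whose green processed column is an intensity from which Feature Extraction had removed background and spatial trend, per the file headers (version 11.0.1.1 there; the submitters' processing notes name 10.3). The authors' deposited series table holds log2 values with equal quartiles over the 30 arrays, and which scaling produced them is not given in the sources used here. Spots of a probe were averaged without outlier-flagged spots (14 of 300 for Oxct1), log2 was taken and the 75th percentile of each array subtracted. Probes were named through RefSeq accessions in a table of assembly GRCr8: 18355 of 30367 (60.4%) matched a symbol. Probes without a symbol were grouped by their own identifier and counted as genes. Of the 18333 genes tested, 11304 had a symbol. A gene was tested, as were 18333 of 26785, if its probe passed the scanner's background test on 4 or more of the 5 arrays in some group, and all 7 members passed. Each comparison used limma 3.58.1 in R 4.3.3, with 6 group means in 1 fit, 95% intervals and Benjamini-Hochberg adjustment over all genes tested. The labels call the 5 arrays of a group biological replicates, and their number limits the precision. Figures used matplotlib 3.10.9.

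The members and gene lists were chosen with earlier results of these data known. The genes named were all 7 members, up to 4 called genes of each list in the perfusion mean, up to 2 called for mean diet or buffer sugar, and the 2 genes most like each member; some genes that this rule names are not reported here. The alternatives covered scaling, background correction, filtering, probe choice, slide and replicate blocks, the groups fitted, variance options and arrays left out. Combinations with the slide block, and all alternatives for the pathway genes, were chosen after the data were seen. Arrays sharing a replicate number did not deviate together (mean residual correlation -0.04, against 0.01 for different numbers), while arrays of a slide did (0.20). The fitting was tested on simulated data without slide effects, so that test does not bear on the choice of a slide block.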

Additional observations from a re-analysis of the deposited data

Results flagged for a closer look

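Of 42 combinations of gene and group, 2 held an array far from the other 4 of its group by Dixon's gap test at the 95% level. Chance flags about 1 in 20 groups. Pcca on chow mannitol replicate 2 was 2.49, below the other arrays of that group, which lay between 2.68 and 2.76, with a gap of 0.715 of the range. Pccb on chow glucose replicate 4 was 2.79, below the others at 2.97 to 3.00, with a gap of 0.877 of the range.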

How the results depend on the processing

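The count of members called was 0 in all 15 comparisons and became 1, always Slc16a1, in 7 cases over the named alternatives. These were the slide as a fixed block in sucrose mannitol perfusion, sucrose glucose perfusion and the perfusion mean, the slide as a random block in the last 2 of these, and scaling by the median or normexp correction in the perfusion mean. Leaving out each array in turn gave counts of 0 to 1 in that mean; the count was 1 without chow non-perfused replicate 4 (adjusted p = 0.0383), sucrose non-perfused replicate 3 or sucrose glucose replicate 2. The replicate block gave a count of 0 in every comparison, with -0.17 for Slc16a1 in the perfusion mean. With a slide block, Slc16a1 was called in the perfusion mean and in sucrose glucose perfusion without any 1 of the 30 arrays, and in sucrose mannitol perfusion in 25 of 30 such fits. In those fits the count ran from 0 to 1 for sucrose mannitol perfusion. The slide block combined with quantile, median or normexp processing, or without the 4 arrays of high control spread, gave a count of 1 in the perfusion mean and in sucrose glucose perfusion, and 1 in sucrose mannitol perfusion under 2 of these 4. With the slide block in the authors' deposited values, Slc16a1 was called in none of these comparisons. Its change in sucrose glucose perfusion was then -0.21 (limma, adjusted p = 0.558).

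Pathway genes called higher in the perfusion mean numbered 9, and 5 after normexp correction and 1 in the authors' deposited values. Those called lower numbered 2, and 4 under median scaling, the filter on all 30 arrays, the fixed slide block and with the 4 arrays of high control spread left out, 5 under the random slide block and 0 in the authors' values. Leaving out 1 array gave 8 to 10 higher and 2 to 4 lower. Slc16a3 was called in all 43 settings. Over all genes, 4095 were called in that mean (1837 higher, 2258 lower), against 2582 after normexp correction and 1143 in the authors' values (852 higher, 291 lower). Fitting the compared groups alone has no counterpart for the perfusion and diet means, which use all 6 groups. The cause of these differences was not tested.

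Directions of small member changes were not stable. Of 105 member changes, 50 changed sign under at least 1 of 14 named alternatives and 49 without 1 array. None of these was called in any direction, and the largest of them in the main fit was 0.14 in size. The largest value after a sign change under a named alternative was 0.24 in size. Below, perfusion stands for perfused against non-perfused, sugar for glucose against mannitol and diet for sucrose against chow. Each value is the log2 change after its sign turned.

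Slc16a1 under quantile normalization was -0.010 in diet by sugar. Oxct1 under quantile normalization was 0.0025 in sucrose mannitol perfusion, 0.031 in sucrose glucose perfusion, 0.031 in mannitol diet and 0.010 in diet by mannitol. Acat1 under quantile normalization was 0.012 in chow glucose perfusion, 0.038 in sucrose mannitol perfusion and 0.048 in diet by mannitol. Pccb under quantile normalization was 0.054 in sucrose mannitol perfusion, 0.024 in mannitol diet, 0.045 in diet by mannitol and 0.0021 in diet by glucose. Mcee under quantile normalization was 0.018 in mean perfusion.

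Slc16a1 scaled by the median of probes above background was -0.0028 in diet by sugar. Acat1 scaled by the median of probes above background was -6.5e-05 in glucose diet. Pccb scaled by the median of probes above background was -0.011 in chow mannitol perfusion and 0.0076 in diet by mannitol.

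Slc16a1 after normexp background correction was -0.0036 in non-perfused diet and -0.087 in diet by sugar. Bdh1 after normexp background correction was 0.00057 in sucrose mannitol perfusion. Oxct1 after normexp background correction was 0.0068 in mean sugar, -0.0045 in non-perfused diet and -0.025 in mean diet. Acat1 after normexp background correction was 0.0050 in sucrose mannitol perfusion, -0.013 in chow sugar and 0.037 in diet by mannitol. Pcca after normexp background correction was -0.027 in chow glucose perfusion and -0.032 in diet by sugar. Pccb after normexp background correction was -0.028 in chow mannitol perfusion, -0.014 in chow glucose perfusion, 0.012 in sucrose mannitol perfusion, -0.0039 in mean perfusion, 0.040 in diet by mannitol and 0.028 in diet by glucose. Mcee after normexp background correction was 0.039 in non-perfused diet.

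Slc16a1 in the authors' deposited values was -0.10 in non-perfused diet, 0.024 in diet by mannitol and 0.048 in diet by glucose. Bdh1 in the authors' deposited values was -0.030 in chow glucose perfusion and 0.042 in sucrose mannitol perfusion. Oxct1 in the authors' deposited values was 0.076 in sucrose mannitol perfusion, 0.096 in sucrose glucose perfusion, 0.011 in mean perfusion, -0.066 in non-perfused diet, 0.052 in mannitol diet and 0.12 in diet by mannitol. Acat1 in the authors' deposited values was 0.084 in sucrose mannitol perfusion, -0.082 in chow sugar and 0.090 in diet by mannitol. Pcca in the authors' deposited values was -0.082 in chow glucose perfusion. Pccb in the authors' deposited values was -0.082 in chow glucose perfusion, 0.10 in sucrose mannitol perfusion, -0.088 in chow sugar, -0.0080 in sucrose sugar, -0.048 in mean sugar, 0.094 in diet by mannitol, 0.17 in diet by glucose and 0.080 in diet by sugar. Mcee in the authors' deposited values was 0.021 in mean perfusion and -0.032 in chow sugar.

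Bdh1 with slide as a fixed block was 0.014 in sucrose mannitol perfusion and -0.013 in glucose diet. Acat1 with slide as a fixed block was 0.016 in chow mannitol perfusion and -0.019 in chow sugar. Pcca with slide as a fixed block was 0.022 in sucrose sugar and -0.10 in diet by mannitol. Pccb with slide as a fixed block was 0.011 in non-perfused diet and 0.11 in diet by sugar.

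Bdh1 with slide as a random block was 0.023 in sucrose mannitol perfusion and -0.00020 in glucose diet. Acat1 with slide as a random block was 0.0056 in chow mannitol perfusion and -0.0086 in chow sugar. Pcca with slide as a random block was -0.0083 in diet by mannitol. Pccb with slide as a random block was 0.0044 in non-perfused diet and 0.030 in diet by sugar.

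Slc16a1 without the 4 arrays of high control spread was -0.035 in diet by sugar. Bdh1 without the 4 arrays of high control spread was 0.24 in sucrose mannitol perfusion and -0.013 in mean sugar. Oxct1 without the 4 arrays of high control spread was -0.015 in sucrose sugar, 0.0084 in mannitol diet and 0.0064 in diet by mannitol. Acat1 without the 4 arrays of high control spread was 0.026 in chow mannitol perfusion, 0.039 in chow glucose perfusion, -0.0028 in mean perfusion, 0.037 in non-perfused diet and -0.031 in diet by glucose. Pcca without the 4 arrays of high control spread was -0.017 in sucrose glucose perfusion, 0.021 in mannitol diet, -0.020 in diet by glucose and -0.088 in diet by sugar. Pccb without the 4 arrays of high control spread was -0.0076 in sucrose glucose perfusion, 0.047 in non-perfused diet, 0.0028 in mannitol diet and 0.0095 in mean diet. Mcee without the 4 arrays of high control spread was 0.019 in mean perfusion.

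Oxct1 without the array alone on its slide was 0.0050 in mean sugar. Pcca without the array alone on its slide was 0.0068 in sucrose sugar and -0.095 in diet by mannitol. Pccb without the array alone on its slide was -0.0023 in mean perfusion and 0.075 in diet by sugar.

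With each array left out in turn, these changes crossed 0. Slc16a1 spanned -0.10 to 0.00054 in chow mannitol perfusion, -0.050 to 0.084 in non-perfused diet and -0.053 to 0.061 in diet by sugar. Bdh1 spanned -0.0048 to 0.31 in chow mannitol perfusion, -0.074 to 0.24 in chow glucose perfusion, -0.14 to 0.11 in sucrose mannitol perfusion, -0.0021 to 0.25 in sucrose glucose perfusion, -0.013 to 0.090 in mean sugar, -0.19 to 0.13 in non-perfused diet, -0.035 to 0.11 in glucose diet, -0.32 to 0.0026 in diet by mannitol and -0.10 to 0.21 in diet by glucose. Oxct1 spanned -0.015 to 0.10 in sucrose sugar, -0.036 to 0.023 in mean sugar, -0.10 to 0.0084 in mannitol diet, -0.0081 to 0.031 in mean diet and -0.034 to 0.065 in diet by glucose. Acat1 spanned -0.069 to 0.026 in chow mannitol perfusion, -0.057 to 0.046 in chow glucose perfusion, -0.076 to 0.010 in sucrose mannitol perfusion, -0.016 to 0.033 in mean perfusion, -0.028 to 0.061 in chow sugar, -0.043 to 0.041 in glucose diet and -0.061 to 0.036 in diet by mannitol. Pcca spanned -0.050 to 0.14 in chow glucose perfusion, -0.018 to 0.15 in sucrose glucose perfusion, -0.23 to 0.0068 in sucrose sugar, -0.21 to 0.021 in mannitol diet, -0.19 to 0.015 in glucose diet, -0.095 to 0.14 in diet by mannitol, -0.076 to 0.13 in diet by glucose and -0.097 to 0.15 in diet by sugar. Pccb spanned -0.041 to 0.049 in chow mannitol perfusion, -0.00029 to 0.090 in chow glucose perfusion, -0.085 to 0.074 in sucrose mannitol perfusion, -0.016 to 0.11 in sucrose glucose perfusion, -0.0048 to 0.057 in mean perfusion, -0.033 to 0.12 in sucrose sugar, -0.085 to 0.038 in non-perfused diet, -0.096 to 0.052 in mannitol diet, -0.062 to 0.016 in glucose diet, -0.042 to 0.0073 in mean diet, -0.088 to 0.072 in diet by mannitol, -0.059 to 0.063 in diet by glucose and -0.074 to 0.075 in diet by sugar. Mcee spanned -0.040 to 0.12 in sucrose mannitol perfusion, -0.056 to 0.019 in mean perfusion, -0.028 to 0.071 in chow sugar and -0.081 to 0.092 in non-perfused diet.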
